A study of Homo sapiens with 27 samples.

Results

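The 9 classical and related cadherin genes CDH1, CDH2, CDH3, CDH4, CDH6, CDH7, CDH11, CDH13 and CDH19 were followed in 92.1 cells, a human uveal melanoma line that carries mutant GNAQ. They were taken by symbol from a count table of 61533 genes, and CDH7 led the choice because it was already known to be higher with the inhibitor on every day. The cells received VS-4718, an inhibitor of focal adhesion kinase (FAKi, 100 nM), or its solvent DMSO, with medium and treatment renewed every 72 h. RNA was sequenced from DMSO cells at day 0 and from DMSO and FAKi cells at days 3, 7, 14 and 21, which gives 27 libraries in 9 groups of 3. All groups share this 1 cell line and its GNAQ mutation, and no untreated group without DMSO was analysed here. The methods describe triplicate plating as well as 3 biological replicates of the whole experiment, and the labels do not say which of these the replicate number counts. If the 3 libraries of a group share a culture, the p-values measure technical spread only.

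Cadherins are transmembrane proteins that hold neighbouring cells together by calcium-dependent binding of their outer domains, mostly to the same cadherin on the next cell. Inside the cell, the tails of classical cadherins bind beta-catenin and p120-type catenins, and alpha-catenin links that complex to actin. Cells of the melanocyte lineage come from the neural crest, which changes its set of cadherins as it leaves the neural tube and migrates, and focal adhesion kinase acts at the other main kind of adhesion, the integrin contacts with the matrix. CDH1 (E-cadherin), CDH2 (N-cadherin), CDH3 (P-cadherin) and CDH4 (R-cadherin) are type I cadherins. CDH6, CDH7, CDH11 and CDH19 are type II cadherins, of which CDH7 and CDH19 are known from neural crest derivatives and CDH19 in particular from Schwann cell precursors. CDH13 (T-cadherin) has no cytoplasmic tail and is held in the membrane by a lipid anchor.

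CDH7 and CDH19 lie next to each other on chromosome 18. In hg38, the CDH7 transcript that was counted (ENSG00000081138.14) spans chr18:65751012-65890337 on the plus strand with 12 exons and 12113 exon bases, and that of CDH19 (ENSG00000071991.9) spans chr18:66501083-66604090 on the minus strand with 12 exons and 6274 exon bases. Their ends face each other across 610745 bases that hold no protein-coding gene in GENCODE 44. The bases just upstream of each gene are shown because these were the highest 2 of the 6 testable members by their FAKi to DMSO fold change over the 4 days. They come from the RefSeq promoter table (GRCh38.p14), with bases inside any annotated exon left out, and the capitals mark ACAAAG, the core of the sites that SOX factors bind.
CDH7 upstream of its outermost start, chr18:65750002-65750251, plus strand: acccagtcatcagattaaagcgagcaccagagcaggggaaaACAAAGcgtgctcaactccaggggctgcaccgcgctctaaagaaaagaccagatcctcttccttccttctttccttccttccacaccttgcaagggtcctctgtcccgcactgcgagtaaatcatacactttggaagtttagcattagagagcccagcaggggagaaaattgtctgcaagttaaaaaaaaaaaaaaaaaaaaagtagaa
CDH19 upstream, chr18:66604139-66604340, minus strand: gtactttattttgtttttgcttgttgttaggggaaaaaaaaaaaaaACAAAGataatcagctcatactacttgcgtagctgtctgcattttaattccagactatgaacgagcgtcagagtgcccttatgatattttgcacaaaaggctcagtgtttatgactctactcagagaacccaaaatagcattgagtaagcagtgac

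ACAAAG began 209 bases before the outermost CDH7 start and 204 bases before the start of the counted CDH19 transcript. The 250 bases before the start of the counted CDH7 transcript did not hold ACAAAG on either strand. Of 35116 promoters in the same table, 13.7% held these letters on either strand within 250 bases upstream. CACGTG and CATGTG, which MITF binds, CAGGTG, which SNAI and ZEB factors bind, GGAATG of TEAD factors and TGANTCA of AP-1 were searched on both strands in the same way and had no match in the CDH7 or CDH19 windows. The shares of all promoters with these letters were 6.34%, 9.42%, 17.5%, 11.9% and 6.57% in that order. Both upstream windows were poorer in G and C than most, with 45.6% and 6 CpG for CDH7 and 38% and 4 CpG for the 250 bases before the CDH19 start, against medians of 58% and 11 CpG. The counted CDH7 transcript starts further in, and the 250 bases before that start had a GC content of 78.4% and 33 CpG and overlap an exon of another CDH7 transcript. The table held an entry for 4 of the 9 cadherins.

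Total counts ran from 12161994 to 43651551 per library, with a median of 24759579. The cells carried the melanocyte marker list at a summed 9365 to 15292 CPM (counts scaled to library size, here the TMM-adjusted one). The epithelial list summed to at most 0.568 CPM and the endothelial list to at most 0.939 CPM. Other lists were not absent, with 5.84 to 17.6 CPM for the fibroblast list and 23.5 to 126 CPM for the immune list. Almost all of the immune sum came from the lysosomal gene CD68. Some libraries stood apart from their group. FAKi day 7 replicate 1 was closer to FAKi day 14 replicate 1 (distance 0.215 on log2 CPM) than any pair of libraries within a group (0.228 to 0.807), DMSO day 3 replicate 1 had 18.1% mitochondrial counts against 9.59% and 8.61% in its partners, and DMSO day 21 replicate 3 had 9.75% against 5.49% in both partners. The count column of this last library is headed DAY721DMSO3, and its day was taken from the sample title, which gives day 21. PTK2, which encodes focal adhesion kinase, did not pass the test in any FAKi comparison, with a mean log2 fold change of 0.04 (SE 0.07, adjusted p = 0.786, edgeR quasi-likelihood, Benjamini-Hochberg), and this mRNA does not measure how far the kinase was inhibited. The corresponding value for GNAQ was -0.12 (SE 0.08, adjusted p = 0.384).

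Of the 23 CDH genes in the table, 4 were expressed well above the rest. As CPM per kilobase of counted exon (RPKM), CDH24, a type II cadherin outside the 9 chosen, came first with a mean of 6.28 ± 1.14 (SD, n = 27 libraries), followed by CDH19 with 4.80 ± 1.56, CDH3 with 3.69 ± 0.381 and CDH7 with 3.51 ± 0.910. These 4 genes made up 96.4% of the summed CDH RPKM on average, with 93.9% in the lowest library and 98.2% in the highest. The next gene, CDH1, reached 0.196 ± 0.105 RPKM, below CDH7 in 27 of 27 libraries. By plain CPM, which favours long transcripts, CDH7 ranked 1 of the 9 in place of 3.

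**Figure D1:**
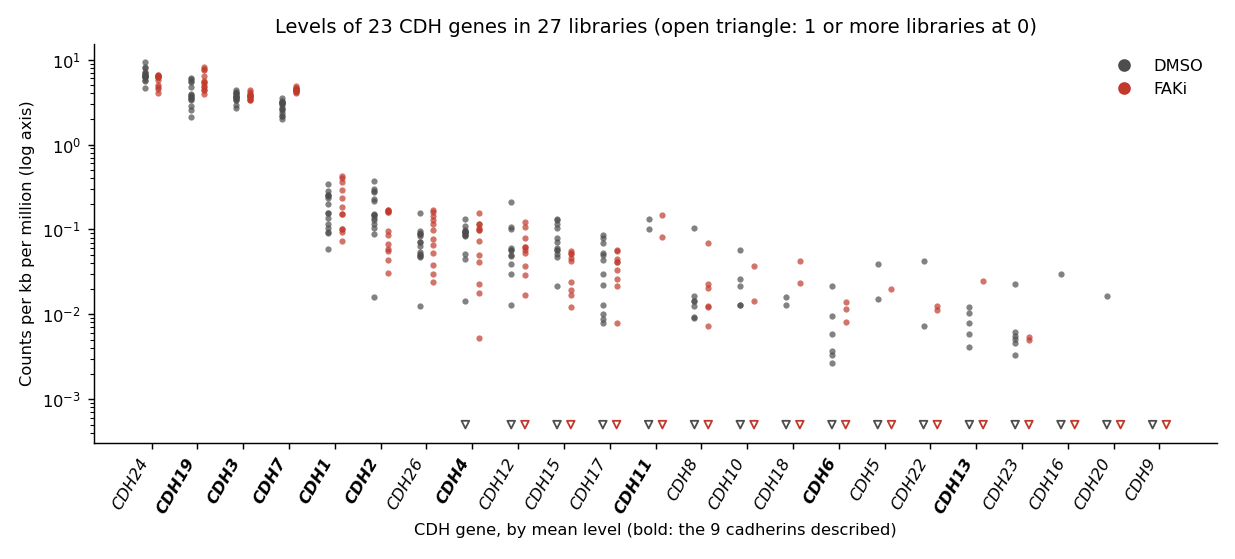
Level of each CDH gene (RPKM, log axis) in the 15 DMSO and 12 FAKi libraries, 1 point per library, ordered by mean level; genes in bold are the 9 cadherins described, and an open triangle marks genes with 1 or more libraries at 0. CDH24, CDH19, CDH3 and CDH7 form an upper band, and every other CDH gene lies at 0.427 or less.

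The order among the leading members differed between the DMSO and FAKi libraries, here pooled over days. CDH3 was above CDH7 in 15 of 15 DMSO libraries and in 2 of 12 FAKi libraries by RPKM. CDH19 was above CDH7 in all 15 DMSO libraries and in 10 of 12 FAKi libraries. CDH7 was chosen for being higher with FAKi, so its shift in this order follows in part from that choice and was not tested. CDH19 was above CDH3 in 9 of 15 DMSO libraries and in 12 of 12 FAKi libraries. CDH1 and CDH2 were not separated by their spread, with CDH1 higher in 18 of 27 libraries.

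The type II cadherin CDH7 was counted 386 to 1965 times per library. At day 0, before treatment, its 3 DMSO libraries had 35.9, 31.3 and 33.0 CPM, a mean of 33.4 ± 2.30 (SD, n = 3). At day 3 the DMSO libraries had 38.1, 36.9 and 26.0 CPM and the FAKi libraries 51.5, 53.9 and 49.1 CPM. At day 7 they had 31.1, 39.7 and 37.0 CPM in DMSO and 55.0, 53.3 and 59.0 CPM with FAKi. On these days the lowest FAKi value exceeded the highest DMSO value. At day 14 the values were 37.1, 43.3 and 38.1 CPM in DMSO and 52.8, 52.3 and 55.9 CPM with FAKi. At day 21 they were 24, 26.4 and 28.4 CPM in DMSO and 50.1, 53.7 and 56.5 CPM with FAKi. The groups again did not overlap, and the lowest of all 12 FAKi libraries, 49.1 CPM, lay above the highest of all 15 DMSO libraries, 43.3 CPM.

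The FAKi to DMSO log2 fold changes of CDH7 were 0.64 on each of days 3 and 7, then 0.44 (day 14) and 1.05 (day 21), with an average of 0.68. Since the gene was chosen on this pattern, these values describe it and were not tested. Of 21147 genes, 97 (0.459%) had FAKi libraries above DMSO libraries without overlap on all 4 days, and CDH7 is among them by choice. The FAKi means lay between 51.5 ± 2.42 and 55.7 ± 2.91 CPM (SD, n = 3), and the 4 FAKi groups overlapped each other, whereas the DMSO means went from 33.4 at day 0 to 39.5 ± 3.34 at day 14 and 26.3 ± 2.22 at day 21. The day with the largest fold change was thus the day with the lowest DMSO level. Ordered by mean, DMSO at days 0, 3, 7 and 14 differed from its neighbours by less than their spread, as did the FAKi groups among themselves. Without DMSO day 3 replicate 1 the day 3 value was 0.73, and without DMSO day 21 replicate 3 the day 21 value was 1.13.

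In DMSO over time, which the choice of CDH7 did not use directly although the DMSO libraries are the same, the gene was not called against day 0. Its log2 fold change was -0.03 (SE 0.17, adjusted p = 0.966) after 3 days and 0.08 (SE 0.09, adjusted p = 0.719) after 7 days, then 0.24 (SE 0.10, adjusted p = 0.108) for day 14 and -0.35 (SE 0.13, adjusted p = 0.0573) for day 21 (edgeR quasi-likelihood test, Benjamini-Hochberg adjustment over all genes). The day 21 DMSO libraries all lay below the day 0 libraries, which 28% of all genes tested also showed. The adjusted p at day 21 was 0.0400 in the fit of all 27 libraries and 1.20e-04 without DMSO day 21 replicate 3 (log2 fold change -0.43), while the other 5 fits that left out 1 library gave 0.101 to 0.194. For day 14 it was 0.0495 without DMSO day 14 replicate 1 (0.29) and up to 0.337 in the other such fits. All of these fold changes lay below the fold threshold.

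**Figure D2:**
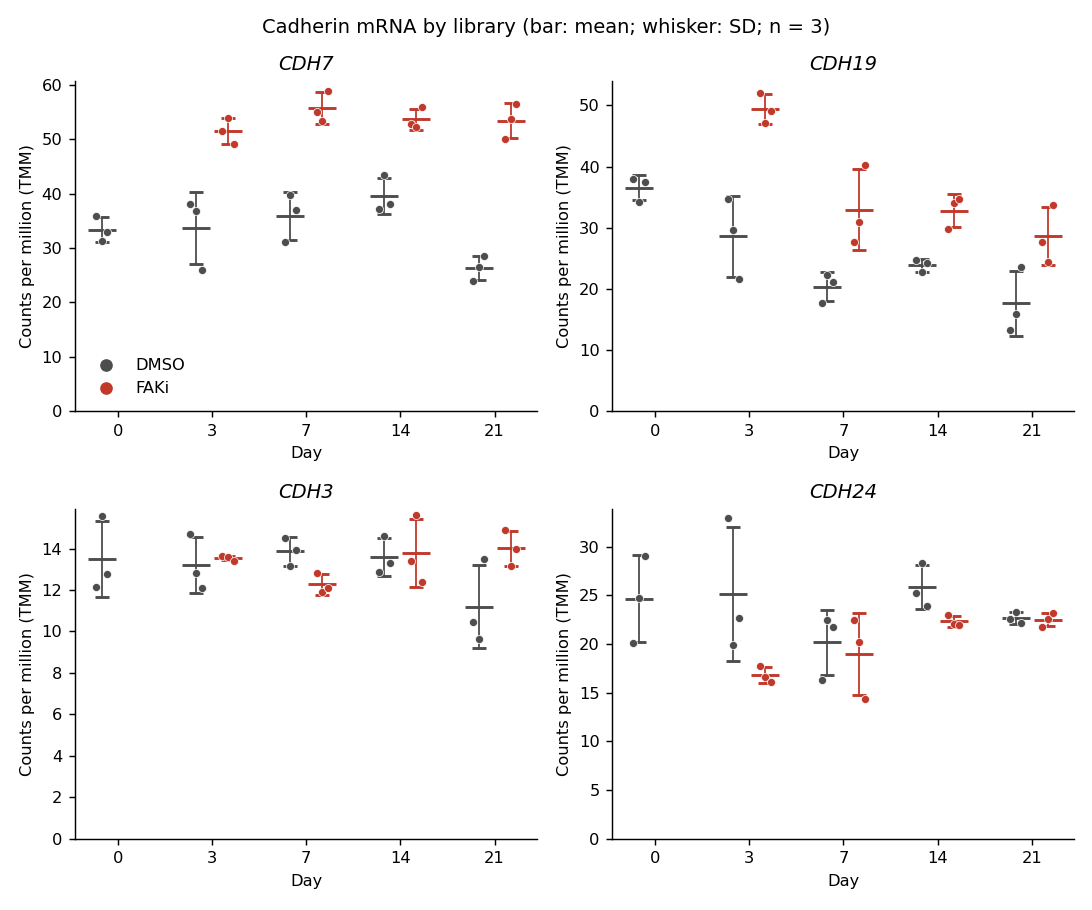
CPM of CDH7, CDH19, CDH3 and CDH24 by day; each point is a library, bars are means and whiskers SDs of 3 libraries, grey for DMSO and red for FAKi. FAKi libraries of CDH7 stay between 49.1 and 59.0 CPM while those of CDH19 go from 47.2 to 52.0 at day 3 down to 24.5 to 33.7 at day 21, and CDH3 groups overlap on most days.

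CDH19, the neighbour of CDH7, was counted 281 to 1533 times per library. At day 0 the DMSO libraries had 37.9, 34.2 and 37.5 CPM, a mean of 36.5 ± 2.05 (SD, n = 3). At day 3 DMSO libraries had 34.7, 29.6 and 21.6 CPM and FAKi libraries 52.0, 47.2 and 49.1 CPM. At day 7 the values were 17.7, 22.3 and 21.1 CPM in DMSO and 27.7, 30.9 and 40.3 CPM with FAKi. FAKi libraries were above DMSO libraries without overlap on both days, and only those of day 3 were also all above day 0. At day 14 DMSO libraries had 24.7, 22.7 and 24.3 CPM and FAKi libraries 29.7, 34.0 and 34.7 CPM. At day 21 the values were 13.3, 16 and 23.6 CPM in DMSO and 27.7, 24.5 and 33.7 CPM with FAKi. The groups again did not overlap on either day. At day 21 the nearest values, 23.6 and 24.5 CPM, were close together, and every FAKi library had by then come to lie below the lowest day 0 library, 34.2 CPM.

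Averaged over the 4 days, CDH19 was higher with FAKi by 0.67 on the log2 scale (SE 0.10, 95% interval 0.47 to 0.87, adjusted p = 5.34e-05, edgeR quasi-likelihood, Benjamini-Hochberg). This is below the fold threshold of the study, a log2 fold change beyond 1 with an adjusted p of at most 0.05, so the gene was not called. Among all genes tested, 15.7% had such an adjusted p for the mean effect and 1.89% also passed the fold threshold. The adjusted p stayed at or below 1.87e-04 in all 24 fits that each left out 1 library, and the value was 0.71 (adjusted p = 5.34e-05) without FAKi day 7 replicate 1 and FAKi day 14 replicate 1 together.

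By single days, the adjusted p of CDH19 passed 0.05 at day 14 only, although the log2 fold change was lowest there, at 0.46 (SE 0.12, adjusted p = 0.0146), as 12.4% of all genes did. By the same edgeR test, days 3 and 7 gave 0.81 (SE 0.18, adjusted p = 0.0945) and 0.70 (SE 0.17, adjusted p = 0.287), and day 21 gave 0.72 (SE 0.24, adjusted p = 0.0798). At day 21, where libraries with the same replicate number deviated together, the fit with the replicate number as a block gave 0.75 with an adjusted p of 0.00349, and 11.6% of all genes passed 0.05 in the fit without the block. With all libraries kept, DESeq2 gave CDH19 an adjusted p of 0.00633, 0.00505 and 0.0351 at days 3, 14 and 21. In the edgeR fit without the block, the passing of 0.05 by CDH19 changed on each day when certain single libraries were left out. At day 14 it was lost in 3 of the 6 fits that left out 1 library, with an adjusted p of 0.0517 without DMSO replicate 2, 0.0552 without FAKi replicate 3 and 0.0991 without FAKi replicate 2. On each other day it was gained in 1 of 6. Without DMSO day 3 replicate 1 the day 3 value was 0.97 (adjusted p = 8.72e-04), without FAKi day 7 replicate 1 the day 7 value was 0.81 (adjusted p = 0.00406), and without DMSO day 21 replicate 3 the day 21 value was 1.02 (adjusted p = 1.49e-05), the only one of these fits that passed the fold threshold. Leaving out any other library gave an adjusted p of 0.0993 to 0.365 (day 3), 0.214 to 0.988 (day 7) and 0.155 to 0.270 (day 21). The effect on CDH19 at day 21 minus that at day 3 was -0.11 (SE 0.32, 95% interval -0.79 to 0.58, adjusted p = 0.896), so a change of either sign within that interval was not resolved.

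In DMSO, CDH19 fell with time. Against day 0 the log2 fold change was -1.06 at day 21 (SE 0.21, adjusted p = 0.00615), a call that 23.3% of all genes tested also met, and it was -0.88 without DMSO day 21 replicate 1 (adjusted p = 0.0206), where the fold threshold was missed. Day 7 gave -0.87 (SE 0.09, adjusted p = 5.69e-08) and day 14 gave -0.62 (SE 0.10, adjusted p = 4.03e-04), both below the fold threshold, where adjusted p alone was passed by 4.94% and 28.3% of all genes. The first interval, to day 3, gave -0.39 (SE 0.18, adjusted p = 0.512), and -0.54 (adjusted p = 0.0388) without DMSO day 3 replicate 1. All are edgeR quasi-likelihood values with Benjamini-Hochberg adjustment, and these comparisons share the DMSO libraries of days 3 to 21 with the FAKi comparisons. In bulk RNA, fewer cells that express a gene and less of its RNA per cell cannot be told apart.

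The ratio of CDH7 to CDH19, both per kilobase within the same library, differed more between days than between treatments in its group means. The day 0 libraries had 0.473 ± 0.0175 (SD, n = 3). DMSO cells then had 0.613 ± 0.0403 (day 3), 0.914 ± 0.00824 (day 7), 0.861 ± 0.113 (day 14) and 0.806 ± 0.163 (day 21). FAKi cells had 0.541 ± 0.0442 (day 3), 0.893 ± 0.136 (day 7), 0.851 ± 0.0637 (day 14) and 0.980 ± 0.141 (day 21). On each treated day the DMSO and FAKi libraries overlapped in the ratio, while all libraries of day 7 or later lay above those of day 0.

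**Figure D3:**
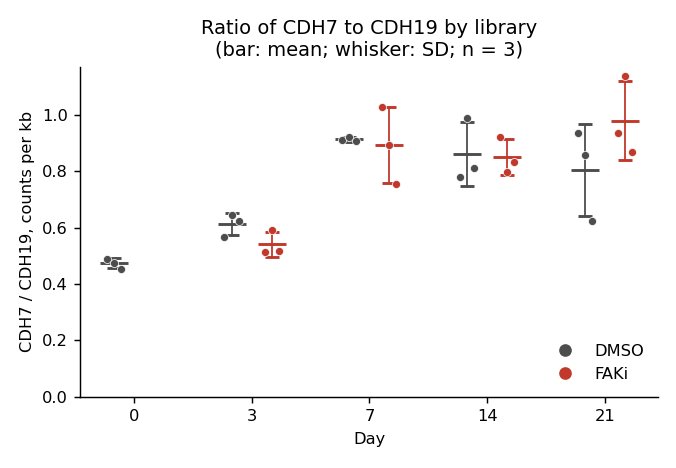
Ratio of CDH7 to CDH19 (counts per kb, same library) by day, with a point per library and mean and SD of 3 libraries, grey for DMSO and red for FAKi. The ratio goes from 0.455 to 0.490 at day 0 to means of 0.806 to 0.980 from day 7 on, with DMSO and FAKi side by side.

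Some other measures also differed between DMSO and FAKi, though not on every day and not always in the same direction. The melanocyte list summed to 11204 to 11708 CPM in DMSO and 12278 to 14378 CPM with FAKi at day 7, without overlap, whereas at day 3 the groups overlapped, at 11696 to 13754 CPM and 12065 to 12807 CPM. It summed to 9365 to 10110 CPM in DMSO and 12225 to 12722 CPM with FAKi at day 14, and to 11732 to 13976 CPM and 14947 to 15292 CPM at day 21. Mitochondrial counts were 5.49% to 9.75% in DMSO and 10.7% to 11.2% with FAKi at day 21, and 22.0% to 27% and 20.7% to 22.1% at day 14. They were 8.61% to 18.1% in DMSO and 16.8% to 18.7% with FAKi at day 3. Day 7 had 17.0% to 19.3% in DMSO and 20.2% to 20.7% with FAKi. The part of these measures in the CDH7 and CDH19 differences was not tested.

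CDH3 was the remaining well expressed member. Over the 27 libraries it had 13.2 ± 1.36 CPM, with 9.66 CPM in the lowest library and 15.6 CPM in the highest. At day 21 the DMSO libraries had 10.5, 9.66 and 13.5 CPM and the FAKi libraries 14.9, 13.1 and 14.0 CPM, which overlap. Day 7 was the exception to the overlap, with 14.5, 13.1 and 13.9 CPM in DMSO and 12.8, 11.9 and 12.1 CPM with FAKi (log2 fold change -0.17, SE 0.14, adjusted p = 0.762). The mean FAKi effect was 0.06 (SE 0.08, 95% interval -0.10 to 0.21, adjusted p = 0.661), and the largest single-day value was 0.34 (SE 0.18, adjusted p = 0.208) at day 21 (edgeR quasi-likelihood test, Benjamini-Hochberg). Without DMSO day 21 replicate 3 that value was 0.51 (adjusted p = 0.00669), past 0.05 and below the fold threshold. Against day 0, the DMSO values lay between -0.27 (SE 0.18, adjusted p = 0.247) at day 21 and 0.03 (SE 0.11, adjusted p = 0.930) at day 7, with -0.42 (adjusted p = 0.00499) at day 21 when that same library was left out. The interval of the mean effect leaves out a rise as large as that of CDH19. CDH3 ends 9823 bases before CDH1 begins on chromosome 16, with no gene between them, and 14.9% of its counted exon bases lie under exons of the opposite strand. Whether the counting used strand is not given in the sources used here, so reads from those exons may be included.

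CDH24, the highest CDH gene, did not pass the test either. At day 3 it had 33.0, 19.9 and 22.7 CPM in DMSO and 17.7, 16.6 and 16.1 CPM with FAKi, without overlap, a log2 fold change of -0.56 (SE 0.20, adjusted p = 0.144). At day 21 it had 22.5, 23.3 and 22.2 CPM in DMSO and 21.8, 22.6 and 23.2 CPM with FAKi, a log2 fold change of 0.01 (SE 0.12, adjusted p = 0.953). The mean effect was -0.21 (SE 0.09, adjusted p = 0.0937, edgeR quasi-likelihood, Benjamini-Hochberg).

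CDH1 and CDH2, the cadherins whose exchange marks the epithelial to mesenchymal transition, were both near the detection limit. CDH1 was counted 5 to 54 times per library, with a mean of 0.937 ± 0.501 CPM (SD, n = 27). At day 3 it had 1.22, 0.653 and 0.551 CPM in DMSO and 1.39, 1.93 and 2.04 CPM with FAKi, without overlap. Its log2 fold change there was 1.12 (SE 0.38, adjusted p = 0.133, edgeR quasi-likelihood test, Benjamini-Hochberg), and 1.57 (adjusted p = 0.00621) without DMSO day 3 replicate 1, where it was called. On later days the groups overlapped, and the mean effect was 0.09 (SE 0.26, adjusted p = 0.882).

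CDH2 was counted 2 to 53 times per library, with a mean of 0.587 ± 0.348 CPM. At day 0 it had 1.11, 1.46 and 0.855 CPM, and in DMSO at day 7 it had 0.583, 0.350 and 0.418 CPM. It fell between these groups by 1.30 on the log2 scale (SE 0.38, adjusted p = 0.0421, edgeR quasi-likelihood test, Benjamini-Hochberg), a call that 0.699% of all genes tested met. The call was lost when replicate 1 or 2 of day 0, or replicate 2 or 3 of DMSO at day 7, was left out (-1.52 to -1.11 over all 6 fits that left out 1 library), and with DESeq2 (adjusted p = 0.0842). At day 21 CDH2 had 0.595, 0.909 and 0.463 CPM in DMSO and 0.220, 0.271 and 0.172 CPM with FAKi, from 5 to 21 counts per library. The FAKi libraries lay below the DMSO libraries, with a log2 fold change of -1.54 (SE 0.51, adjusted p = 0.0799), and it was called without DMSO day 21 replicate 3 (-1.72, adjusted p = 0.0301). The mean effect was -0.61 (SE 0.35, adjusted p = 0.243).

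CDH4 was counted 0 to 39 times per library, with a mean of 0.510 ± 0.268 CPM and 1 library at 0. Its FAKi and DMSO libraries overlapped on all 4 days, and the mean effect was -0.03 (SE 0.38, 95% interval -0.81 to 0.74, adjusted p = 1.00, edgeR quasi-likelihood, Benjamini-Hochberg). Against day 0, its DMSO value at day 14 was -1.57 (SE 1.14, adjusted p = 0.344), and -3.65 (adjusted p = 0.0436) without DMSO day 14 replicate 2, where it was called. These intervals are too wide to show or leave out a change of the size seen for CDH7.

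CDH6, CDH11 and CDH13 were at the floor. They had 15, 6 and 12 counts over all 27 libraries, and 18, 23 and 21 libraries at 0, respectively. A count of 0 allows up to 3 counts, which is 0.0680 CPM in the deepest library and 0.243 CPM in the shallowest. CDH11 was counted on a transcript of 608 exon bases in 3 exons out of 19 annotated transcripts, so counts outside that transcript are not in its value. For CDH13, 29.9% of the exon bases lie under exons of the opposite strand. All 3 genes fell below the count filter of 20 in every comparison, so no fold change is given.

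Read as a set, the 8 cadherins other than CDH7 gave 5 that could be tested, and none was called for FAKi against DMSO on any day. Over all genes tested by edgeR, 0% were called on day 3 and 0.0269% on day 7, then 1.66% (day 14) and 5.28% (day 21). At an unadjusted p under 0.05 there were 2 of the 5 on days 3 and 21 and 1 on days 7 and 14, and over days 3 to 21 in order the share was 23.8%, 8.77%, 24.6% and 32.6% of all genes. DESeq2 called 0 on each day as well. Without overlap and higher with FAKi were 2 at day 3 and 1 on each later day, where 14.4%, 7.67%, 15% and 17.7% of all genes were. Without overlap and lower were 1 at day 7 (CDH3) and 1 at day 21 (CDH2), where 9.11% and 17.6% of all genes were. The median log2 fold change of the 5 for the mean effect was 0.06, beside 0.01 over all genes. For the effect at day 21 minus that at day 3, 0 of 5 were called, against 2.22% of all genes. None of the 5 had an unadjusted p under 0.05, where 19.1% of all genes did. Of the 6 cadherins tested in DMSO against day 0, CDH7 included, 1 was called at day 7 and 1 at day 21, with none on days 3 and 14, beside 0%, 0.699%, 6.07% and 23.3% of all genes on days 3, 7, 14 and 21. At an unadjusted p under 0.05 there were 0, 2, 2 and 2 of the 6 on days 3, 7, 14 and 21. Over all genes these shares were 9.86%, 16.9%, 38.4% and 53.8%. DESeq2 called 0 on days 3, 7 and 14 and 1 on day 21. The shares of all genes in this paragraph are from edgeR, so the DESeq2 counts have no share to be read against.

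**Figure D4:**
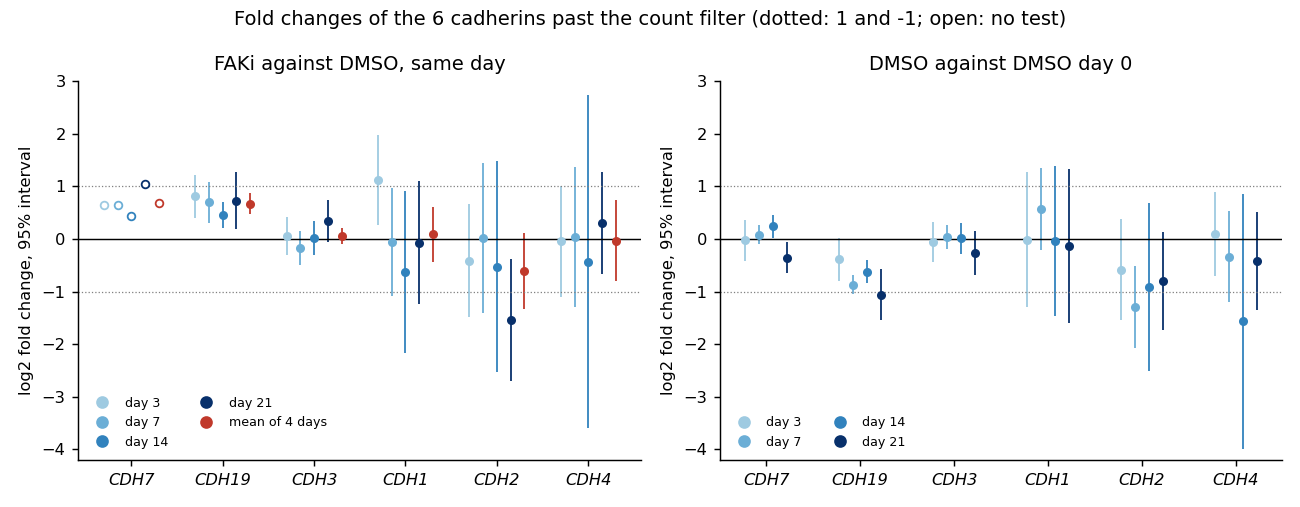
Log2 fold change of the 6 cadherins past the count filter, left for FAKi against DMSO on each day and averaged, right for DMSO against DMSO day 0; lines are 95% intervals, dotted lines mark 1 and -1, and open circles are CDH7 values given without a test. CDH19 is above 0 on every day at left and below 0 at right, CDH3 stays near 0, and the intervals of CDH1, CDH2 and CDH4 are wide.

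The genes whose log2 CPM followed CDH7 most closely over the 27 libraries, out of 16980 with a mean of at least 1 CPM, were RAI14 (Pearson r 0.91), ZFYVE26 (0.90), TRIB2 (0.89), ENOX2 (0.89) and TENM3 (0.88). CDH19 came in rank 777 with an r of 0.63. For CDH19 the closest were PTPRM (0.89), ARHGAP31 (0.88) and CRACD (0.86). These libraries share treatment, day and depth differences, so the values describe likeness across these 9 groups only.

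The partners of cadherins were abundant. Of 12 catenins and actin linkers, 11 could be tested, and none was called for FAKi on any day or on average. CTNNB1, which encodes beta-catenin, had 141 ± 24.7 RPKM (SD, n = 27) and a mean effect of -0.07 (SE 0.08, adjusted p = 0.562), and CTNNA1, which encodes alpha-catenin, had 97.4 ± 17.4 RPKM and -0.14 (SE 0.07, adjusted p = 0.149), both by the edgeR test. By adjusted p alone, JUP (plakoglobin, a beta-catenin relative) was lower on average, with a log2 fold change of -0.33 (SE 0.08, adjusted p = 0.00936) and PKP4, a p120-type catenin, was higher by 0.24 (SE 0.07, adjusted p = 0.0323). These were 1 lower and 1 higher of the 11 tested, beside 8.7% and 6.96% of all genes. In DMSO at day 21 against day 0, CTNND1, which encodes the main p120-type catenin, fell by 1.01 (adjusted p = 0.0187) and AFDN, an actin linker of nectins, fell by 1.28 (adjusted p = 0.00261). They were the 2 of 11 called lower there, beside 10% of all genes.

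Of 11 desmosome genes, 6 could be tested for the mean effect and none was called in any FAKi comparison. DSG2, a desmosomal cadherin, led with 14.0 ± 4.06 RPKM and had a mean effect of 0.26 (SE 0.14, adjusted p = 0.217), and DSC2 had 0.157 ± 0.0669 RPKM. In DMSO at day 21 against day 0, 3 of 4 tested were called lower by edgeR, DSP at -2.08 (adjusted p = 0.0156), DSC2 at -1.46 (adjusted p = 0.00511) and DSG2 at -1.18 (adjusted p = 0.0161), beside 10% of all genes. Of the 4 nectins, adhesion proteins that sit beside cadherins in the junction, none was called with FAKi. NECTIN2 was the highest with 16.1 ± 3.22 RPKM, followed by NECTIN3 with 1.35 ± 0.326. NECTIN1 was lower with FAKi at day 21 by adjusted p alone, at -0.76 (SE 0.20, adjusted p = 0.0474), as 6.32% of all genes were.

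The other 14 CDH genes held 6 that could be tested for the mean effect, with 0 called in any comparison. After CDH24 the highest was CDH26, with 0.0804 ± 0.0422 RPKM. Among 23 protocadherins and large cadherins, PCDH20 (95.8 ± 47.1 RPKM) and CLSTN1 (31.0 ± 3.31 RPKM) were the highest, and neither passed for the mean effect, at -0.32 (SE 0.16, adjusted p = 0.167) and -0.03 (SE 0.07, adjusted p = 0.850) by edgeR. At day 21, 1 of 17 tested was called higher with FAKi and 1 lower, beside 2.58% and 2.71% of all genes. FAT4, a giant cadherin of planar polarity and growth control, had 0.312, 0.455 and 0.232 CPM in DMSO and 1.06, 1.19 and 2.16 CPM with FAKi, a log2 fold change of 2.20 (SE 0.46, adjusted p = 0.0241). PCDH7 had 20.6, 18.7 and 29.1 CPM in DMSO and 7.83, 6.76 and 8.31 CPM with FAKi, a log2 fold change of -1.56 (SE 0.21, adjusted p = 0.00666). At day 14 the same gene was in the other direction, with 30.4, 37.5 and 35.2 CPM in DMSO and 66.8, 63.8 and 69.5 CPM with FAKi (0.95, SE 0.11, adjusted p = 5.62e-06).

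Among 9 transcription factors known to repress cadherin genes, 8 could be tested. SNAI1 fell with FAKi at day 21, from 1.5, 1.25 and 1.48 CPM in DMSO to 0.704, 0.325 and 0.460 CPM, a log2 fold change of -1.47 (SE 0.38, adjusted p = 0.0436, edgeR quasi-likelihood test, Benjamini-Hochberg). It was the 1 of 8 called that day, when 2.71% of all genes were called lower. With 3 to 113 counts per library and a mean of 1.30 CPM, SNAI1 was near the detection limit. SNAI2, its relative and the highest of the list with 51.1 ± 28.4 RPKM, went the other way, from 60.1, 56.3 and 56.4 CPM in DMSO to 113, 110 and 113 CPM with FAKi at day 21 (0.98, SE 0.11, adjusted p = 0.00433), just under the fold threshold. Its mean effect was 0.76 (SE 0.08, adjusted p = 1.40e-06), but at day 14 its DMSO libraries, at 314, 287 and 255 CPM, overlapped FAKi libraries at 244, 256 and 267 CPM. TCF3, the second highest with 19.6 ± 2.84 RPKM, had a mean effect of -0.0023 (SE 0.08, adjusted p = 1.00). At day 14 none was called, and by adjusted p alone 1 was higher and 3 were lower, beside 6.35% and 6.1% of all genes. TCF3 was higher by 0.34 (SE 0.11, adjusted p = 0.0489) with overlapping libraries. ZEB1 was lower at -0.71 (SE 0.20, adjusted p = 0.0219), as were ZEB2 at -0.33 (SE 0.10, adjusted p = 0.0410) and TWIST1 at -0.52 (SE 0.17, adjusted p = 0.0490).

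**Figure D5:**
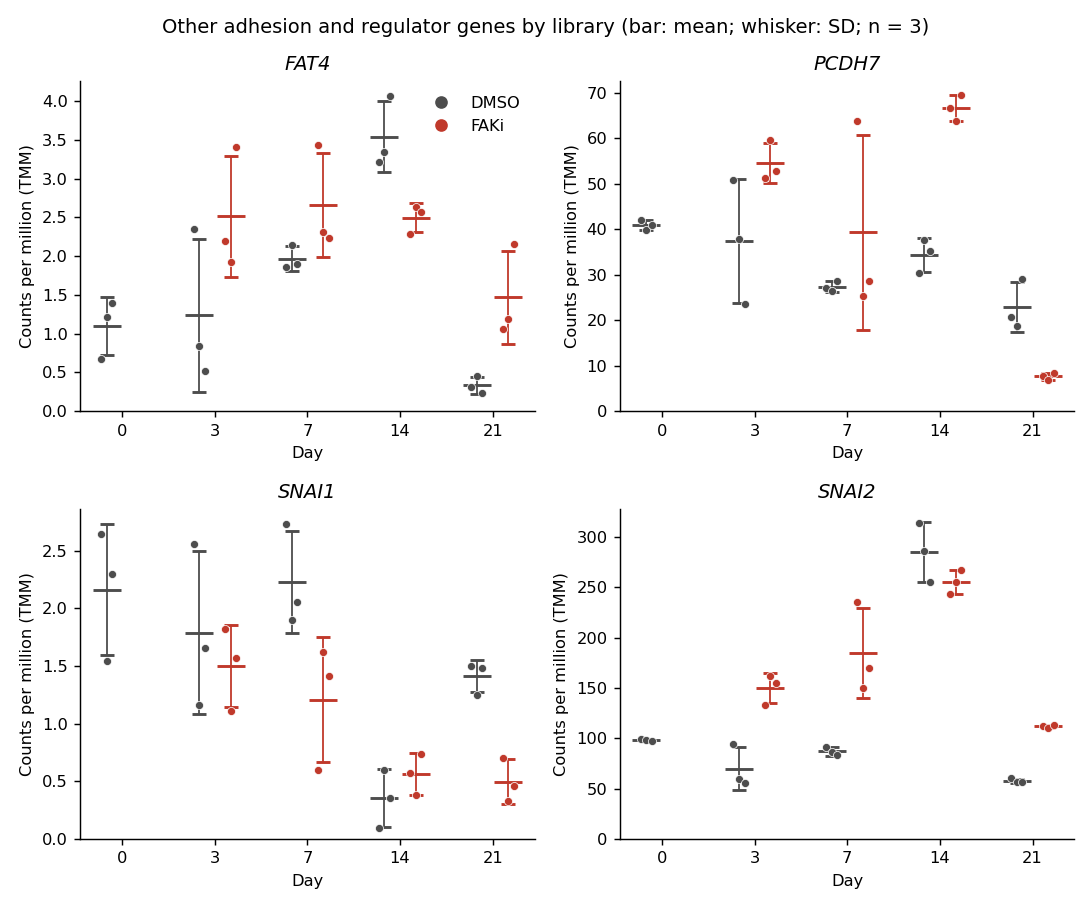
CPM of FAT4, PCDH7, SNAI1 and SNAI2 by day, with a point per library and mean and SD of 3 libraries, grey for DMSO and red for FAKi. FAKi libraries of PCDH7 are above DMSO at day 14 and below it at day 21, and at day 7 replicate 1, at 63.9 CPM, stands apart from 25.3 and 28.7 CPM.

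Of 8 genes for cadherin shedding and turnover, all were tested and none was called with FAKi. NCSTN and APH1A, subunits of gamma-secretase, were the highest with 51.4 ± 10.8 and 47.7 ± 8.87 RPKM. ADAM10, the protease that sheds the outer part of several cadherins, was higher on average by 0.34 (SE 0.09, adjusted p = 0.00912), and PSEN2, a catalytic subunit of gamma-secretase, was lower at -0.30 (SE 0.07, adjusted p = 0.00704), both by edgeR and both below the fold threshold. Of the 8, these were 1 higher and 1 lower by adjusted p alone, beside 6.96% and 8.7% of all genes. Among the marker lists, DCT, a melanocyte enzyme, was called higher on average at 1.02 (SE 0.16, adjusted p = 1.26e-04). At day 21 CD68, a lysosomal gene used as a macrophage marker, fell by 1.32 (SE 0.14, adjusted p = 0.00379) and LUM, a matrix gene used as a fibroblast marker, fell by 1.15 (SE 0.31, adjusted p = 0.0487). Over all genes, 0.878% were called higher on average and 2.71% lower at day 21.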

How the data were processed

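The authors trimmed reads with Trim Galore, checked them with FastQC 0.11.8 and aligned them to hg38 with STAR 2.5.3a. The deposited counts are raw exon counts per gene, made by HOMER's analyzeRepeats.pl on GENCODE 39 with a single transcript kept per gene, and are not normalized. Strand handling is not given in the sources used here. The authors tested with DESeq2. Here, counts were tested with edgeR 4.0.16 (TMM, quasi-likelihood, Benjamini-Hochberg over all genes), with a filter of at least 20 counts over the libraries compared. Calls needed adjusted p ≤ 0.05 with a log2 fold change beyond 1. SEs are the fold change over the square root of F. CPM and RPKM use TMM over 27 libraries and the exon length of the counted transcript. Promoters came from RefSeq (GRCh38.p14). Alternatives were DESeq2 1.42.0, other size factors and filters, 1 fit of all libraries, each library left out, and a replicate block. Same-numbered libraries deviated together only between FAKi and DMSO at day 21 (r 0.443, 0.128 and 0.658). The pipeline was tested on simulated counts. Genes named are the cadherins, those most like CDH7 and CDH19 and, apart from 1 marker list that is not reported here, genes called with FAKi and the highest 2 of each list other than the marker lists; others were chosen after their values were seen. The cadherins, lists and tests were chosen with earlier results of these data known.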

Additional observations from a re-analysis of the deposited data

Results flagged for a closer look

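The FAKi effect differed between days 3 and 21 for 3 genes of the lists, by the interaction term of the edgeR quasi-likelihood fit with Benjamini-Hochberg adjustment. For PCDH7 the effect at day 21 minus that at day 3 was -2.14 on the log2 scale (SE 0.35, adjusted p = 0.00752). For CD68 it was -1.57 (SE 0.29, adjusted p = 0.0142), and for LUM it was -1.49 (SE 0.35, adjusted p = 0.0371). The lists of PCDH7, CD68 and LUM held 21, 1 and 3 genes tested for this term. Over all genes tested, 2.22% were called for it. None of the 5 cadherins tested showed such a difference.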

How the results depend on the processing

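The counts of called cadherins were recomputed under other size factors, filters, tools, samples and pairings. By adjusted p alone, 1 cadherin passed with FAKi at day 14, 1 for the mean effect, 2 in DMSO at day 7 and 1 in DMSO at day 14. Over all genes, 12.4%, 15.7%, 4.94% and 28.3% passed in the same order. The 1 call in DMSO at day 7 (CDH2) became 0 with DESeq2 and 0 with all 27 libraries in 1 fit. Leaving out 1 library at a time gave 0 to 1 calls with FAKi at day 3, 0 to 2 at day 21, and 0 to 1 in DMSO at days 7, 14 and 21. The shares of all genes called in these fits are not given here, so a gain particular to cadherins cannot be read from them. The adjusted p of CDH19 crossed 0.05 between tools without a call: with DESeq2 it was 0.00633, 0.0506, 0.00505 and 0.0351 at days 3, 7, 14 and 21, and with all libraries in 1 fit 0.00707, 0.0812, 0.128 and 0.00945. With no count filter they were 0.00133, 0.0245, 0.00644 and 0.0171. The cause was not tested.

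With the replicate block, counts of called cadherins were as without it in every comparison (1 in DMSO at day 7 and 1 at day 21, otherwise 0), and only FAKi day 21 was paired by its correlations. Of values that changed sign with the block, CDH4 with FAKi at day 14 went from -0.44 to 0.58, and the others were CDH2 and CDH4 with FAKi at day 7 (-0.067 and -0.030) and CDH1 in DMSO at days 3 and 14 (0.041 and 0.054). With no count filter, CDH2 with FAKi at day 7 was -0.000773 and CDH1 in DMSO at day 3 was 0.0029. CDH7 ranked 1 of 9 by plain CPM, and 2 of its 5 most similar genes stayed in the first 5 over 9 group means.

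Leave-one-out ranges that crossed 0 were, with FAKi at day 3, -0.63 to 0.11 (CDH2), -0.0033 to 0.14 (CDH3) and -0.41 to 0.32 (CDH4). At day 7 they were -0.60 to 0.32 (CDH1), -0.36 to 0.51 (CDH2) and -0.25 to 0.47 (CDH4), and at day 14 -1.06 to 0.32 (CDH2), -0.079 to 0.091 (CDH3) and -1.50 to 0.028 (CDH4). At day 21 the range was -0.41 to 0.40 (CDH1), for the mean effect -0.046 to 0.21 (CDH1) and -0.31 to 0.49 (CDH4), and for the change of effect -0.016 to 0.68 (CDH4) and -0.31 to 0.22 (CDH19). In DMSO at day 3 they were -0.42 to 0.79 (CDH1), -0.14 to 0.048 (CDH3), -0.071 to 0.17 (CDH4) and -0.12 to 0.13 (CDH7), at day 7 -0.036 to 0.13 (CDH3), at day 14 -0.47 to 0.80 (CDH1) and -0.061 to 0.12 (CDH3), and at day 21 -0.62 to 0.65 (CDH1). Depth limits CDH1, CDH2 and CDH4, with means under 1 CPM.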
